A study of Rattus norvegicus with 18 samples.

Results

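Complement is a cascade of blood and tissue proteins that tags and lyses targets, and its alternative pathway amplifies the signal once C3 has been cleaved. The protease factor D (adipsin) cleaves factor B, whose larger fragment forms the convertase of that loop with C3b, and properdin stabilises it, while factor I, the C1 inhibitor, clusterin, vitronectin, CD55 and CD59 restrain the cascade at successive steps. Local production by retinal glia, photoreceptors and the retinal pigment epithelium (RPE) has been studied for its link to age-related macular degeneration.

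The 9 genes described here were all found by symbol, among 32285 genes in the retina table and 32552 in the RPE/choroid table. They were chosen by name as alternative pathway components (Cfb, Cfd and Cfp) and complement regulators (Cfi, Serping1, Clu, Vtn, Cd55 and Cd59), by a rule that uses no measured value. Bulk RNA-seq covered neural retina and RPE/choroid of Fischer 344 rats, an albino inbred strain. Each tissue had 3 libraries from young rats (4 months in the sample labels, 3 months in the paper's legends), 3 from aged rats of 24 months given plain drinking water, and 3 from rats of 24 months given 8-aminoguanine (8-AG), an endogenous purine, for 8 weeks with the water they drank, at a daily 5 mg/kg. All groups were wild-type females, and no group carried an allele that the others lacked.

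Retina libraries held 12283458 to 15644346 expected counts and RPE/choroid libraries 28573828 to 48203050 raw counts. Levels are CPM, the counts of a gene scaled to a TMM-corrected library total of 1000000. The tissues were prepared and counted separately, so no level was compared between them. Changes are log2 fold changes of edgeR's quasi-likelihood F-test with their standard error (SE). A gene was called where the Benjamini-Hochberg adjusted p over all genes tested was under 0.05, and the study's DEG rule (unadjusted P under 0.05 and over 1.5 times higher or lower) is named where it is used. With 3 libraries a group, the smallest p of an exact two-sided permutation test is 0.10, and whether groups overlap is stated beside each test. The labels do not say that libraries came from separate animals, so p-values measure the spread between these libraries. In RPE/choroid, the descriptions of young libraries 1 and 2 share a number and differ in L or R, as do those of aged libraries 1 and 2, and these may be both eyes of a rat, which the labels do not say. Total RNA is the labelled molecule of the 3 retina libraries from 8-AG-treated rats and polyA RNA that of the other 15, although the labelled protocol names poly-A selection in every case.

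Markers were read first, as their libraries bear on several genes. In retina, 14 of 15 rod markers were found, and their summed level was 58300 to 63400 CPM in young, 36800 to 41700 in aged and 37400 to 49500 CPM after 8-AG. The 11 microglia and macrophage markers found of 12 summed to 28.4 to 32 CPM in young retina, 72 to 114 in aged and 81.3 to 95.1 after 8-AG, and none was at 0 in a whole group. Lens markers reached 2860 and 6370 CPM in young retina libraries 1 and 2 and 1760 in 8-AG library 1, against 17.5 to 157 in the other 6. In RPE/choroid, 10 of 10 RPE cell markers were found, at 5450 to 18500 CPM. The lowest of those values belonged to 8-AG library 1, which also had 55900 CPM of rod and 54100 CPM of striated muscle markers and 1150 CPM of fibroblast markers, against 4410 to 11300 in the other 8 libraries. Fewer cells of a type and less RNA per cell cannot be told apart in bulk samples.

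**Figure D1:**
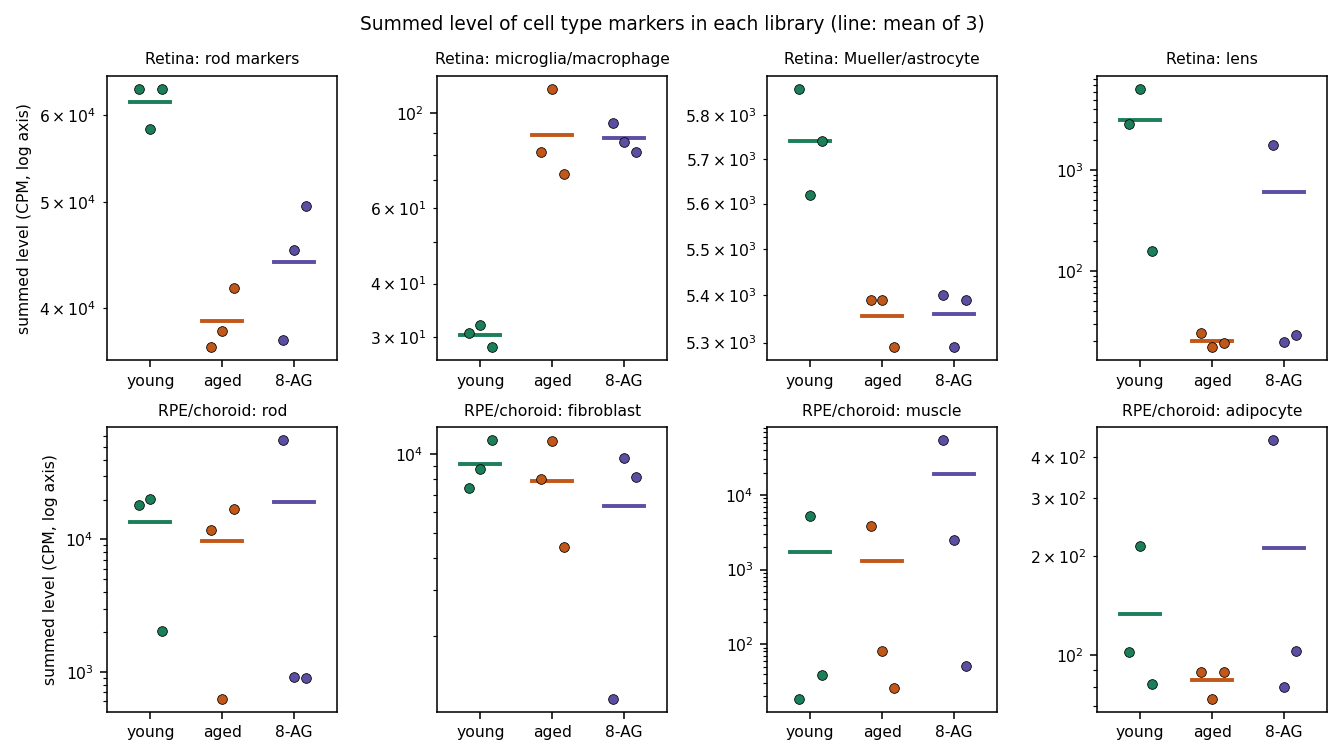
Summed level in CPM (log axis) of 4 marker lists in retina (upper row) and 4 in RPE/choroid (lower row), with a point for each library, the line at the mean of 3, and groups on the horizontal axis. Rod markers lie at 58300 to 63400 CPM in young retina and at 36800 to 41700 in aged retina, and 8-AG library 1 of RPE/choroid stands apart with 54100 CPM of muscle and 1150 CPM of fibroblast markers.

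Aged retina had higher levels of 3 regulators than young retina. Cfi, Serping1 and Clu rose and no member fell, out of 7 that passed the low-count filter. All 3 met the DEG rule too, while 7.29% of the 14588 genes tested were called higher and 6.45% met the rule upward. The median change of the 7 members was 0.50, and that of all genes tested was 0.002. Of the 7 tested, 4 lay higher in every aged than in every young library, as did 17.5% of all genes tested, and so did Cfd, which was not tested.

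Cfi (ENSRNOG00000053400) encodes factor I, the serine protease that cleaves C3b and C4b. It was near absent from young retina, with 2, 1 and 0 counts (0.154, 0.0750 and 0 CPM), where a count of 0 allows up to 0.204 CPM. Aged retina held 19, 24 and 19 counts (1.47, 1.53 and 1.32 CPM), and the groups did not overlap. The summed counts, 62 against 3, gave a ratio of 21.4 per total count with an exact 95% interval of 6.99 to 107, for counting error only. The fitted change was 4.14 (SE 0.58, edgeR adjusted p = 0.0016), and it remained between 3.55 and 5.03 on leaving out any library. Cfi could not be tested with at least 10 counts asked of every library.

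Serping1 (ENSRNOG00000007457) encodes the C1 inhibitor, which blocks the first proteases of the classical and lectin pathways. Young retina measured 12.3, 11.3 and 7.69 CPM and aged retina 59.7, 101 and 60 CPM, and the groups did not overlap. The change was 2.83 (SE 0.32), a 7.1-fold increase (edgeR adjusted p = 0.0061), with the highest level in aged library 2, which also had the highest microglia and macrophage markers (114 CPM). Of the aged libraries it was also the highest in erythrocyte (369 CPM, against 77.2 and 85.3), neutrophil and monocyte (37.6 against 21.9 and 24.8) and fibroblast markers (180 against 101 and 116). Lyz2 alone gave 31.8 of the 37.6 CPM and Fn1 121 of the 180. Of the other fibroblast markers, Col3a1 was highest there (2.42 CPM, against 0.621 and 0.762) and Dcn lowest (0.0638 against 0.31 and 0.346). Col1a2 was at 0 in all aged libraries, and the part of these lists in the Serping1 level was not tested. Without that library the change was 2.53 (edgeR adjusted p = 0.00045).

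Clu (ENSRNOG00000016460) encodes clusterin, a secreted chaperone that blocks assembly of the membrane attack complex. It measured 427, 409 and 308 CPM in young retina and 866, 1120 and 790 in aged retina, again with no overlap. The change was 1.28 (SE 0.19), or 2.43-fold (edgeR adjusted p = 0.0096). Vtn (ENSRNOG00000010031) encodes vitronectin, which acts at the same terminal step. Its levels were 2.93, 3.75 and 3.47 CPM in young and 4.97, 3.89 and 5.47 CPM in aged retina, which did not overlap, but the change of 0.50 (SE 0.21, edgeR adjusted p = 0.14) was not called.

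When both young libraries rich in lens markers were left out, an alternative chosen after seeing the data that leaves young library 3 alone and assumes it varies like the aged group, Clu changed by 1.60 (edgeR adjusted p = 0.020). Cfi was called as well (edgeR adjusted p = 0.016), but the library left held 0 of its counts, so no fold is given. Serping1 was 3.27 higher there but was no longer called (edgeR adjusted p = 0.10). Neutrophil and monocyte markers also lay higher in aged (21.9 to 37.6 CPM) than in young retina (8.78 to 10), as did erythrocyte markers (77.2 to 369 against 24.2 to 42.2). Lyz2 alone carried most of the neutrophil and monocyte sum, at 18.6 to 31.8 CPM in aged and 6.15 to 7.69 in young retina. In that list Csf3r (1.11 to 2.87 against 0.34 to 0.848) and S100a9 (0.0693 to 1.15 against 0) were higher too. Ngp was lower (0.638 to 1.11 against 1.5 to 1.77). The part of these lists, of the lower rod level, the higher microglia level or the lens markers in these changes was not tested.

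The membrane regulators showed no called change with age in retina. Cd55 (ENSRNOG00000003927) encodes decay-accelerating factor, which takes convertases apart at the cell surface. It measured 1.77, 1.73 and 0.953 CPM in young and 0.699, 1.40 and 0.693 CPM in aged retina, with overlapping groups and a fitted difference of -0.64 (SE 0.40, edgeR adjusted p = 0.32). Without aged library 2 it was -1.07 and met the DEG rule, and without both young libraries rich in lens markers, the higher young ones in Cd55, it was 0 (edgeR adjusted p = 1). Cd59 (ENSRNOG00000042821), whose product stops C9 from polymerising, lay at 99.4, 90.2 and 92.1 CPM in young and 84.8, 95.4 and 89.9 CPM in aged retina. Its difference of -0.06 had an edgeR 95% interval of -0.20 to 0.09, the narrowest of the members.

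Of the alternative pathway components, only Cfp (ENSRNOG00000025811), which encodes properdin, could be tested with age in retina. It measured 5.32, 5.18 and 4.76 CPM in young and 6.05, 2.87 and 4.92 in aged retina, and the difference of -0.15 (SE 0.25, edgeR adjusted p = 0.75) was not called. Cfd (ENSRNOG00000033564), the gene of factor D, missed the low-count filter, with 1, 2 and 3 counts in young and 6, 19 and 9 in aged retina. These values (0.0771, 0.150 and 0.204 against 0.466, 1.21 and 0.623 CPM) did not overlap, and the summed counts gave a ratio of 5.86 with an exact 95% interval of 2.43 to 17.1, for counting error only. With the filter removed, Cfd was 2.35 higher (SE 0.65, edgeR adjusted p = 0.018), and by the Wald test of DESeq2 it was 2.41 higher (adjusted p = 0.11).

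Cfb (ENSRNOG00000000419), the gene of factor B, could not be measured by itself in retina. It was listed at 0 in all 3 aged libraries, in young library 1 and in 8-AG library 2, while its expected counts were 19.9, 20 and 20.9 in young libraries 2 and 3 and 8-AG library 3, and 1.92 in 8-AG library 1. Cfb neighbours C2, the homologous classical pathway gene, and 2 identifiers of the retina table carry the name C2, so the split of reads among these 3 identifiers is uncertain. Their sum measured 28.3, 27.6 and 14.2 CPM in young and 116, 138 and 99.9 CPM in aged retina, with no overlap. That sum rose by 2.34 (SE 0.32, edgeR adjusted p = 0.013), and it does not tell the genes apart.

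**Figure D2:**
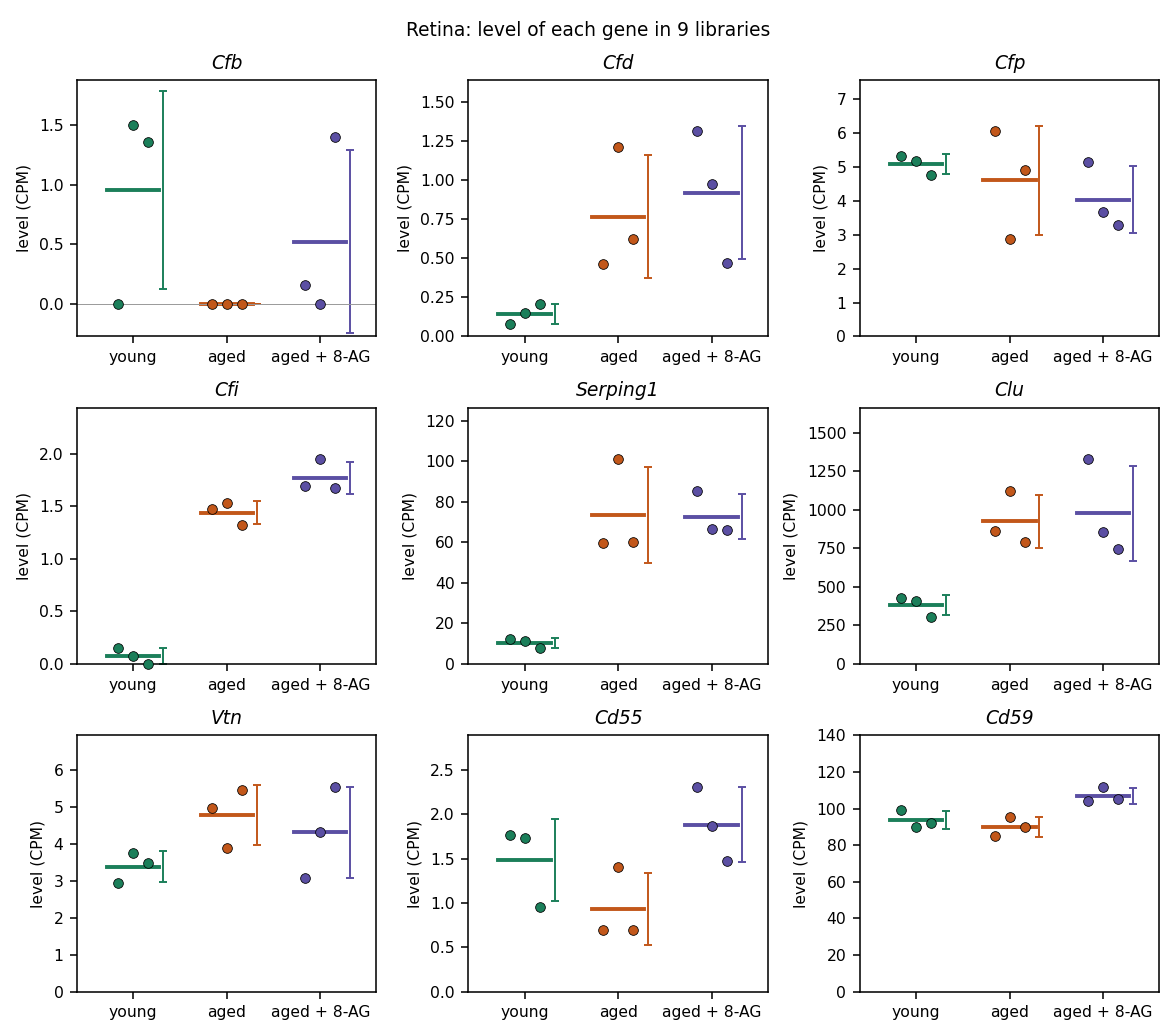
Level in CPM of each of the 9 genes in the 9 retina libraries, with a point for each library, a line at the mean of 3 and a bar of 1 SD beside it, and groups on the horizontal axis. Serping1 lies at 7.69 to 12.3 CPM in young retina and at 59.7 to 101 in both groups of 24 months, and Cfb is listed at 0 in 5 of the 9 libraries.

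Most other complement genes that could be tested also rose with age in retina. Of 41 listed, 33 were found and 21 were tested, and 14 rose and 0 fell at an adjusted p under 0.05. The 14 include C2, read from the identifier with 29.9% of its counts, and the uncertain split of reads holds for it too. C4bpb, a subunit of C4b-binding protein, was the nearest to a call downward (-0.54, edgeR adjusted p = 0.055). The 10 with the lowest adjusted p were C1qb, C1s, C1r, C1qa, Itgb2, C1qc, C4a, C4b, C1rl and C3, with changes from 1.57 for C1rl to 3.26 for C4a. C1qa, C1qb and C1qc, which encode the chains of C1q and are typical of microglia, changed by 2.50 to 2.60, and C1r and C1s, the proteases that Serping1 inhibits, by 1.77 and 2.84. Among the 5 tested regulators outside the 9 members, only Cr1l, a membrane regulator of rodents, was called (0.40, edgeR adjusted p = 0.023).

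The genes most like Cfi over the 9 retina libraries were sought among 14065 genes with a symbol and at least 1 CPM on average. By Pearson's r of log2(CPM + 1) they were Zc3hav1 (r = 0.988), an antiviral RNA-binding protein, Gsta4 (0.987), a glutathione transferase, Cp (0.986), the ferroxidase ceruloplasmin, Zyx (0.986), an adhesion protein, and Tp53i3 (0.985). Cp had a mean level of 127 CPM in young, 610 in aged and 626 CPM in treated retina. The 9 points share their groups and library depths, so these values describe the pattern and carry no test.

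None of the 3 regulators that rose with age was called in 8-AG-treated against aged retina. Serping1 measured 85.5, 66.4 and 66.2 CPM in treated retina, and its difference from aged retina was -0.02 with an edgeR 95% interval of -0.60 to 0.56. Clu measured 1330, 857 and 745 CPM, a difference of 0.07 with an interval of -0.54 to 0.69. Both overlapped the aged group.

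Cfi measured 1.69, 1.95 and 1.67 CPM after 8-AG (22, 24 and 25 counts), all above the aged range. The difference of 0.29 (SE 0.26, edgeR adjusted p = 1) was not called, and its 95% interval was -0.28 to 0.87. Of the 8 members tested, 3 lay above every aged library (Cfi, Cd55 and Cd59), as did 4.57% of the 14631 genes tested. The sum of Cfb and C2 was 139, 95.9 and 103 CPM, which differed by -0.07 from aged retina (95% interval -0.47 to 0.33).

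Cd55 was the only member that met the DEG rule in 8-AG-treated against aged retina. It measured 2.31, 1.87 and 1.47 CPM (30, 23 and 22 counts) against 0.699, 1.40 and 0.693 CPM (9, 22 and 10 counts), and the groups did not overlap. The difference was 0.98 (SE 0.36), with an edgeR adjusted p of 1. Upward, 0.526% of all genes met the rule, and 0.0205% were called at an adjusted p under 0.05 in either direction. The rule was no longer met without aged library 1 or 3 or 8-AG library 1, or with DESeq2. Surface epithelium markers, of which 9 of 10 were found, summed to 127, 44.2 and 55.8 CPM in the treated libraries against 26.7 to 27.1 in aged and 34.7 to 83.4 in young retina. In 8-AG library 1, which had the highest Cd55 level, Cdh1 alone gave 95.5 of the 127 CPM, against 6.67 and 6.08 in the other treated libraries, whereas Krt5 was lowest there of the treated libraries (1.92 CPM, against 2.03 and 3.34). That library also held the 1760 CPM of lens markers, and the part of either list in this difference was not tested.

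Cd59 measured 104, 112 and 105 CPM after 8-AG, above all aged and all young libraries. The difference from aged retina was 0.25 (SE 0.07, edgeR adjusted p = 1), a 1.19-fold difference that lies under the fold of the rule. By edgeR's adjusted p, 0 of 8 members were called, and DESeq2 called 0. An unadjusted P under 0.05 was reached by 2 members (Cd55 and Cd59) and by 3.67% of all genes tested. Apart from these and Cfi, the members tested lay between -0.19 for Cfp and 0.21 for Cfd. Of the 25 other complement genes tested, 0 were called by edgeR's adjusted p and 0 met the DEG rule. These 3 retina libraries are those labelled total RNA, which the protocol contradicts, and treatment and that label cannot be told apart.

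Against young retina, the treated libraries gave the same 3 calls as the aged ones, and both comparisons share the young libraries. Cfi was 4.43 (SE 0.56), Serping1 2.81 (SE 0.20) and Clu 1.36 (SE 0.28) higher, with edgeR adjusted p of 0.00097, 0.00024 and 0.039. RPE cell markers, all 10 found, summed to 341, 157 and 186 CPM in treated, 67.1 to 201 in aged and 23.1 to 140 in young retina. The highest of the treated in them, 8-AG library 1, was so in Clu and Serping1 too. Aged library 2 went the other way, with the fewest of the aged (67.1 CPM) and the highest Serping1 (101) and Clu (1120). Young library 2, with the most of the young, was below young library 1 in both genes. Microglia and macrophage markers lay higher and rod markers lower in each treated than in each young library. Higher as well were erythrocyte (53.4 to 128 CPM against 24.2 to 42.2) and neutrophil and monocyte markers (30.9 to 42 against 8.78 to 10). Lyz2 carried most of the latter (22.4 to 36.1 against 6.15 to 7.69 CPM), and the part of these lists was not tested. Upward, 7.78% of the 14542 genes tested were called, and 4 of the 8 members tested, with Cd59 as the fourth, lay above every young library, as did 17.2% of all genes tested. Cfd, not tested in this comparison, lay above them too, at 1.31, 0.976 and 0.468 CPM (17, 12 and 7 counts). With no low-count filter it was 2.56 higher (SE 0.63, edgeR adjusted p = 0.011), and by the Wald test of DESeq2 2.66 higher (adjusted p = 0.056). The Clu call was lost on leaving out young library 1, 2 or 3 or 8-AG library 2 (edgeR adjusted p up to 0.12) and with no low-count filter (edgeR adjusted p = 0.069). Without the libraries rich in lens markers, which leaves young library 3 alone, Clu was 1.39 and Serping1 3.12 higher. Cfi had 0 counts in that young library, so no fold is given. Of 22 other complement genes, 13 rose and 1 fell, Masp2, a lectin pathway protease (-0.37, edgeR adjusted p = 0.046).

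In RPE/choroid no member was called in any of the 3 comparisons. By edgeR's adjusted p, 0 of 9 members and 0 genes in all were called with age, where 341 genes had an unadjusted P under 0.05 and DESeq2 called 29 genes and 0 members. The DEG rule was met by 0 of 9 members with age, by 0 in 8-AG-treated against aged and by 0 in 8-AG-treated against young rats, beside 1.35%, 1.65% and 1.99% of all genes. Unadjusted P under 0.05 was reached by 0 members in each, and DESeq2's adjusted p called 0.

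Cfi was again lowest in young libraries. It measured 0.134, 0.189 and 0 CPM (4, 7 and 0 counts) in young and 0.323, 0.384 and 1.61 CPM (10, 13 and 48 counts) in aged RPE/choroid. The groups did not overlap and the fitted difference was 2.85 (SE 1.18, edgeR adjusted p = 1), or 1.74 without aged library 3. After 8-AG it measured 1.31, 0.834 and 0.307 CPM, also above every young library, with a difference of 2.95 from young (SE 1.19, edgeR adjusted p = 1). DESeq2, 5 other settings and leaving out young library 3 each brought Cfi past the DEG rule in one or both of these comparisons.

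Cfb, here with its own counts, measured 1.17, 1.24 and 1.62 CPM in young and 1.94, 2.51 and 1.71 in aged RPE/choroid. It was the other member with no overlap with age (0.61, SE 0.31, edgeR adjusted p = 1), and 2.89% of all genes were higher in that way. After 8-AG it spread from 0.703 to 4.30 CPM. Cfi and Clu were higher in each treated than in each young library, as were 2.70% of all genes.

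Clu measured 1280, 1330 and 1080 CPM in young, 1180, 1180 and 3630 in aged and 1710, 1400 and 3900 in treated RPE/choroid. The aged difference of 0.69 (SE 0.48) rested on aged library 3, since it was -0.05 without that library. That library also had the highest Mueller cell and astrocyte markers of the 9 (7580 CPM, against 3920 to 6630), but 8-AG library 3, with the highest Clu level, had 5880 CPM of them, and 8-AG library 1, with 1710 CPM of Clu, had 6630. The list holds Rlbp1, which the paper counts among RPE-specific mRNAs, so its sum in this tissue is not of Mueller cells and astrocytes alone. The part of those markers in the Clu level was not tested.

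Serping1, Vtn and Cfp were low together in 8-AG library 1. That library was also the lowest of the 9 in microglia and macrophage (206 CPM, against 586 to 1050), neutrophil and monocyte (176 against 1400 to 3010) and endothelial and mural markers (603 against 2360 to 4970), and their part was not tested. Serping1 measured 102 CPM there and 560 and 524 CPM in the other treated libraries, against 433 to 771 in aged and 338 to 511 in young RPE/choroid. Vtn measured 8.68 CPM there and 41.3 and 47.0 in the others, and Cfp 4.65, 32.3 and 33.8 CPM. Without that library the differences between treated and aged were -0.03 for Serping1, -0.01 for Vtn and 0.27 for Cfp, in place of -0.47, -0.45 and -0.21.

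Cd55 went the other way in the same library, at 21.0 CPM against 2.56 and 5.24 CPM in the other treated libraries. Young RPE/choroid had 3.94, 1.81 and 2.19 CPM and aged 3.74, 1.57 and 6.75. The treated group was 1.31 above the aged one (SE 0.96, edgeR adjusted p = 1), and -0.05 without 8-AG library 1. That library also had the most surface epithelium markers, 1590 CPM against 161 to 467 in the other 8. The next highest Cd55 level, 6.75 CPM in aged library 3, lay in the library with the fewest of them (161 CPM). 8-AG library 1 was also the highest in rod (55900 CPM) and muscle markers (54100 CPM), and the part of these lists was not tested. Cd59 lay between 352 and 534 CPM in all 9 libraries, and its 3 fitted differences were 0.08, 0.16 and 0.23.

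Cfd, which fat cells secrete in quantity, measured 44.3, 103 and 72.3 CPM in young, 50.1, 74.8 and 25.3 in aged and 86.4, 51.2 and 52.0 CPM in treated RPE/choroid. All groups overlapped, and the aged difference was -0.55 (SE 0.47, edgeR adjusted p = 1). The 11 adipocyte markers, all found, summed to 215 CPM in young library 2 and 450 in 8-AG library 1, against 73.5 to 103 in the other 7. Those are also the libraries with the highest and the second highest Cfd level. They were the highest in striated muscle markers too (5190 and 54100 CPM, against 18.6 to 3820 in the other 7). Aged library 2, next in Cfd level (74.8 CPM), had the lowest adipocyte sum (73.5 CPM). The part of fat or muscle in the Cfd level was not tested.

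**Figure D3:**
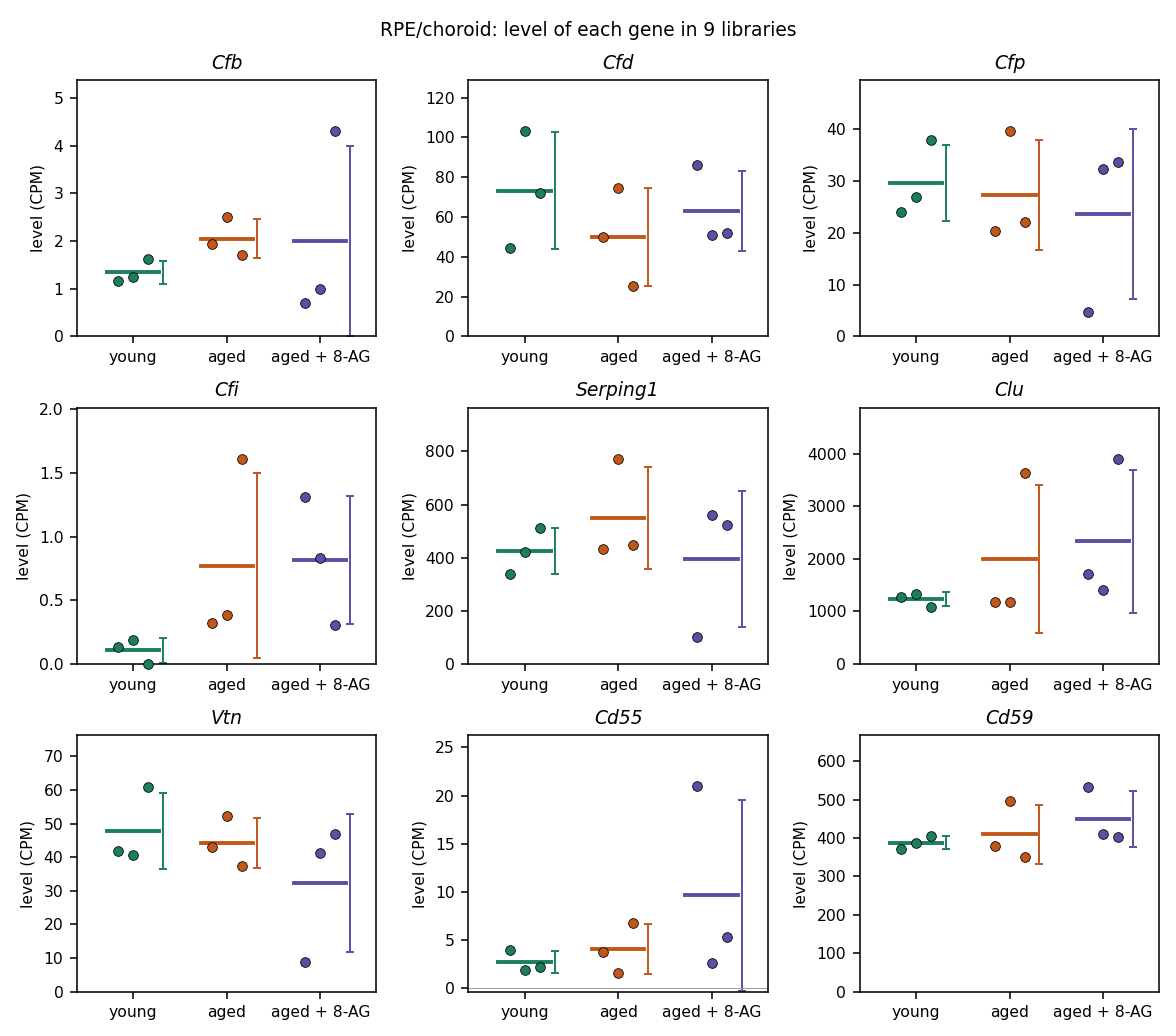
Level in CPM of each of the 9 genes in the 9 RPE/choroid libraries, with a point for each library, a line at the mean of 3 and a bar of 1 SD beside it, and groups on the horizontal axis. In 8-AG library 1 Serping1 (102 CPM), Vtn (8.68) and Cfp (4.65) are the lowest of the 9 and Cd55 (21.0) is the highest.

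Other complement genes in RPE/choroid gave 0 calls at an adjusted p under 0.05 among 31 tested. The DEG rule was met upward by 3 with age, C4a (1.42), C4b (1.05) and C3 (1.31), and by 2 in 8-AG-treated against young rats, C4b (1.17) and C3 (0.99), beside 0.717% and 1.71% of all genes. Both comparisons share the young libraries.

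Whether aging changed the members to a different extent in both tissues was tested with limma's interaction term over 16792 genes, of which 0.0298% were called. No member was called, and 1192 genes had an unadjusted p under 0.05, Serping1 and Cfd among them. The aging change of Serping1 was larger in retina by 2.49 (SE 0.57, limma adjusted p = 0.13), since it was 2.83 in retina and 0.37 in RPE/choroid (edgeR 95% interval -0.34 to 1.09). That of Cfd was larger by 2.73 (SE 0.97, limma adjusted p = 0.45), on few retinal counts. For Cfi the difference between tissues was 0.82 (SE 1.49, limma adjusted p = 1).

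**Figure D4:**
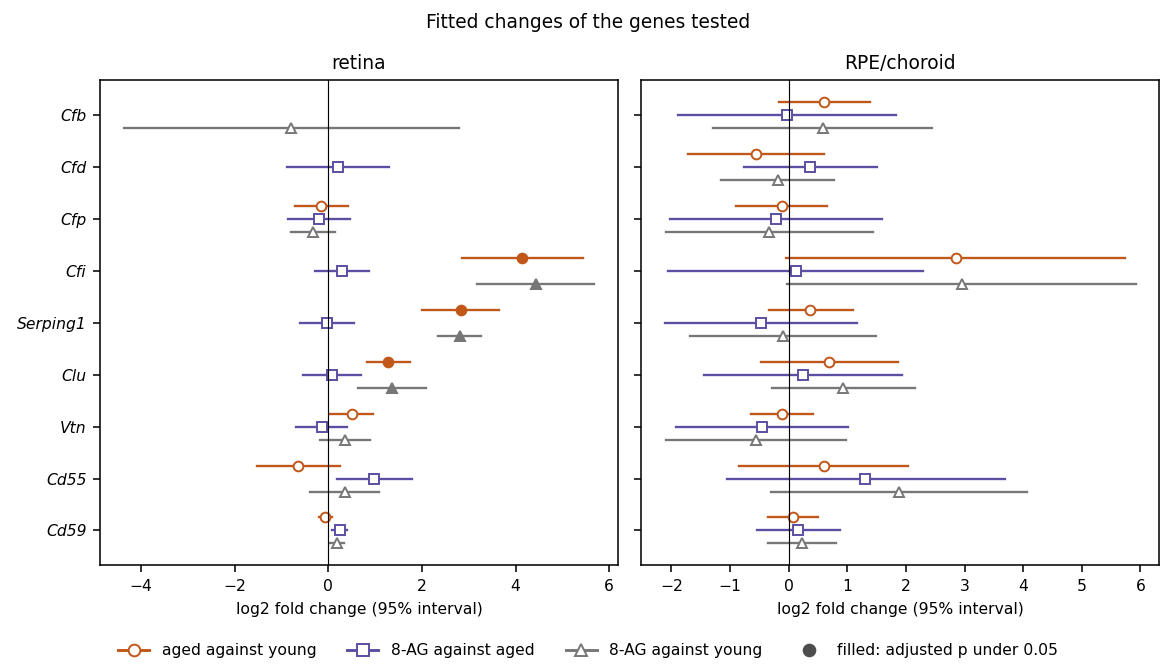
Fitted log2 fold changes with their edgeR 95% intervals for the members tested, in retina (left) and RPE/choroid (right), with symbols for the 3 comparisons and filled symbols where the adjusted p was under 0.05. The filled symbols are Cfi, Serping1 and Clu in retina, with aged against young at 4.14, 2.83 and 1.28, and the intervals in RPE/choroid all include 0.

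Upstream sequence was read for the members in RefSeq's promoter table of build GRCr8, where 5 of 9 matched (Cfi, Cfd, Cfp, Vtn and Cd55). On both strands of the 250 bases before each start 2 motifs were searched, GAAANNGAA (the core of the interferon-stimulated response element) and TTCNNNGAA (the gamma-activated site bound by STAT factors). The first occurred in 8.12% and the second in 7.67% of the 33469 windows of that length. Vtn held 1 match of each, shown in capitals, at 145 and 115 bases before its start, and the other 4 held none. Cfi is printed as the member with the largest change and Vtn as the only one with matches, and a match is a description and not a binding site.
Cfi, chr2:221063066-221063315, plus strand: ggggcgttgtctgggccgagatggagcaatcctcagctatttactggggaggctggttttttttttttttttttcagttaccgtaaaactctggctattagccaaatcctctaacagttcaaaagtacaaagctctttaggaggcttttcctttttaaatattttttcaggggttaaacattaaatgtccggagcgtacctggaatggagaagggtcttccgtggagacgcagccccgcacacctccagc
Vtn, chr10:63892532-63892781, plus strand: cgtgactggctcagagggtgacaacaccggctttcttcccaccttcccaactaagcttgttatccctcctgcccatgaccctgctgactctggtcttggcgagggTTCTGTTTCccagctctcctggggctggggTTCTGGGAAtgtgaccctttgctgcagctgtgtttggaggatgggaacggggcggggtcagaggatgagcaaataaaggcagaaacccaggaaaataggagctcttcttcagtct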

How the data were processed

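RNA-seq of neural retina and RPE/choroid from Fischer 344 rats was analysed, with 9 libraries a tissue and 3 a group. For retina the authors deposited RSEM expected counts per gene, not normalized, of which 11.5% were not whole numbers, and these were rounded here. For RPE/choroid the authors deposited raw read counts per gene, made after polyA selection with full-length enrichment. Symbols were paired with identifiers through the gene names in the RPE/choroid tables and through a second retina table of signal, normalized by TMM, which the authors deposited too. The submitters' processing notes name Bowtie2 2.1.0, RSEM 1.2.15, edgeR and build Rnor_6.0, without giving each its table. The authors' own fold changes and p-values, which other deposited columns hold, were not used. There were 0 unused columns of per-sample values.

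A comparison used its 6 libraries alone and was fitted in R 4.3.3 with edgeR 4.0.16 (filterByExpr, TMM, estimateDisp, glmQLFit with robust=TRUE, glmQLFTest), and p-values were adjusted by Benjamini and Hochberg over all genes tested. The SE is the absolute log2 fold change divided by the square root of F, and intervals of 95% use the t distribution with edgeR's degrees of freedom. Aging changes of both tissues were compared by limma 3.58.1 (voom with sample weights per tissue). Counting ratios have exact conditional binomial intervals. CPM levels use TMM over the 9 libraries of a tissue. The methods were tested on simulated data with 200 changed genes. No pair of libraries of a group was identical, and counts of every pair differed by more than sampling noise.

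The members, the lists of other complement genes and of cell type markers, and the tests were chosen with earlier results of these data known. Every member was named. Of the other complement genes with an adjusted p under 0.05 in aged against young retina, the 10 with the lowest adjusted p were named. C2 and Cr1l, also called there, were named besides, but not every called gene was. Of those called in treated against young retina, only Masp2 was named. Also named were the 5 genes most like the member with the largest called change in aged against young retina. No member met the DEG rule in RPE/choroid with age, so none was sought there. C4bpb, Masp2 and the 3 RPE/choroid genes named were chosen after their values were seen. C4a was read as ENSRNOG00000000443. Alternatives were a replicate block, DESeq2 1.42.0, RLE size factors, robust=FALSE, a filter of 10 counts per library, no filter, unrounded counts, all 3 groups together, edgeR for the interaction, sums of libraries with 1 label number, and leaving out each library. Leaving out the libraries with over 1000 CPM of lens markers was added after seeing the data. Python 3.11.15, pandas 2.3.3, SciPy 1.17.1 and matplotlib 3.10.9 made tables and figures.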

Additional observations from a re-analysis of the deposited data

How the results depend on the processing

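Of 832 values of single members under an alternative setting, 769 kept their direction and their side of the DEG rule (between tissues, of the adjusted p), 4 no longer met it, 15 newly met it and 44 turned direction, none of the latter in a member called by the DEG rule in that comparison. Cfi, Serping1 and Clu were called in aged against young retina under each alternative that could test them but the one added after seeing the data, where Serping1 was lost, and Cfi was untested at 10 counts in every library. The 3 members that met the DEG rule there became 4 (Cfd added) with DESeq2, with no filter and with all 3 groups in one fit, 2 with at least 10 counts in every library, and 3 to 5 on leaving out 1 library, with Cd55 and Vtn added without aged library 2. The 3 in 8-AG-treated against young retina became 4 (Cfd added) under the same 3 settings and without young 1, 2 or 3 or 8-AG 3, and 2 with at least 10 counts. Without young library 1, Cfb was called in aged against young retina and, as the 1 member of 0 to 1, in the comparison of tissues, but its reads cannot be split from C2. The 1 member (Cd55) in 8-AG-treated against aged retina became 0 with DESeq2 and 0 with at least 10 counts in every library, where it was not tested, and 0 to 1 on leaving out 1 library (0 without aged 1, aged 3 or 8-AG 1). In RPE/choroid the 0 members with age became 1 (Cfi) with DESeq2, 1 with no filter and 1 with all 3 groups in one fit. The 0 in 8-AG-treated against young became 3 with DESeq2 (Cfi, Cd55, Clu), 1 (Cfi) with RLE, 1 with all 3 groups in one fit, 1 with robust=FALSE, 1 with the replicate block, and 0 to 1 on leaving out 1 library (Cfi without young 3, Cd55 without 8-AG 2). Whether the replicate numbers pair the libraries is not known. Correlations of same-numbered deviations ran from -0.25 to 0.22 in retina and from -0.58 to 0.65 in RPE/choroid. They cannot decide it, with 3 libraries a group and no differently numbered pairs beside them. The replicate block also turned Serping1 in 8-AG-treated against aged retina to 0.01, and changed no other call. Leaving out 1 library turned uncalled differences within these ranges. In retina, 8-AG-treated against aged gave Cfd -0.14 to 0.72, Cfp -0.44 to 0.05, Clu -0.21 to 0.24, Serping1 -0.16 to 0.28 and Vtn -0.37 to 0.05, and aged against young gave Cfp -0.39 to 0.11. In RPE/choroid, 8-AG-treated against aged gave Cd55 -0.05 to 1.91, Cd59 -0.01 to 0.32, Cfb -1.26 to 0.36, Cfi -0.45 to 1.24, Cfp -0.57 to 0.27 and Clu -0.36 to 1. With libraries of a shared label number summed, Cfb was 0.04, Cfi -0.22 and Clu -0.03 there, and Cd59 -0.001 in aged against young. 8-AG-treated against young gave Cfb -0.64 to 0.99, Cfd -0.50 to 0.15, Cfp -0.67 to 0.16 and Serping1 -0.42 to 0.36, and aged against young gave Cd59 -0.09 to 0.18, Cfp -0.49 to 0.08, Clu -0.05 to 0.95 and Vtn -0.25 to 0.08. The difference between tissues was -0.22 to 0.04 for Cd59 and -0.26 to 0.27 for Cfp. The cause of these shifts was not tested. Over all genes, the DEG rule called 140 in 8-AG-treated against aged retina, and 92 to 318 under the alternatives other than leaving out a library, with 255, 219 and 226 without aged 2, 8-AG 2 and 8-AG 3. In RPE/choroid these counts were 217 (131 to 384) with age, 269 (85 to 755) in 8-AG-treated against aged and 322 (112 to 855) in 8-AG-treated against young. Leaving out a library took the first to 328 and 414 (aged 1 and 2), the second to 97 and 86 (aged 1 and 2), 554 and 733 (8-AG 1 and 2), and the third to 115, 126 and 154 (young 1, 2 and 3), 684 and 1202 (8-AG 1 and 2). At an adjusted p under 0.05, leaving out a library took 2122 genes in aged against young retina to 1336 and 1245 (young 1 and 2), 2163 in 8-AG-treated against young to 1314, 1026 and 1212 (young 1, 2 and 3) and 1048 (8-AG 2), and the 5 between tissues to 0 to 25. Under the other alternatives, 3 genes became 0 to 18 in 8-AG-treated against aged retina and 5 became 2 to 27 between tissues. The 0 genes of RPE/choroid became 29, 81 and 98 with DESeq2, in the same order. Depth limits Cfi and Cfd in retina, with at most 3 counts in each young library.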
